A study of Mus musculus with 20 samples.

Results

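Transcripts of 9 genes for the oxidation of fatty acids outside mitochondria were followed through 20 mouse livers. They are Ehhadh, Acaa1a, Acaa1b, Hsd17b4 and Pex11a of the peroxisome and Cyp4a10, Cyp4a14, Cyp4a12a and Cyp4a12b, cytochromes P450 that start omega oxidation. They were taken by gene name from a table of 38924 genes, and all 9 passed the filter on low values that left 14524 genes to be tested. Male C57BL/6J mice (WT) and male TSP-1 knockout mice (TSP-1 null, JAX stock #006141) were bought at 5 weeks of age, kept for 1 week and then fed for 12 weeks. The control diet gave the groups NDWT and NDKO, and CDAHFD, a high-fat diet without choline whose protein is replaced by defined amino acids (a model of non-alcoholic steatohepatitis) gave HFWT and HFKO, with 5 mice in each. The knockout affects all cells from conception, and so precedes the diet. RNA came from pieces of whole liver. The data description names the right medial lobe as their origin and the study's methods the right lateral lobe. Values are FPKM (fragments per kilobase of gene length, for libraries brought to a common total), given as mean ± SD over 5 mice unless stated otherwise.

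Peroxisomes shorten very long-chain and branched fatty acids, and dicarboxylic acids, by a form of beta oxidation whose first step passes electrons to oxygen and yields hydrogen peroxide. The dicarboxylic acids arise in the endoplasmic reticulum, where CYP4A enzymes hydroxylate a fatty acid at its methyl end (omega oxidation), so both routes are joined. In rodent liver many of these genes are induced by the nuclear receptor PPARα, with Cyp4a10, Cyp4a14, Ehhadh and Pex11a among the best known, whereas Cyp4a12a and Cyp4a12b are known as genes of the male liver.

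Some of the members are near copies of each other, which limits how well reads can be assigned to them. The coding sequences of Cyp4a12a and Cyp4a12b were 98.5% identical, with 23 mismatches in 1524 bases, and those of Acaa1a and Acaa1b were 96.5% identical, with 44 mismatches in 1272 bases. The 60-base stretches of exon 6 below (GRCm38, coding strand, 5′ to 3′) show how few bases separate each pair. Capitals mark the bases at which the partners differ, 4 in the Cyp4a12 pair (coding bases 630 to 689, counted from the first base of the start codon) and 11 in the Acaa1 pair (coding bases 460 to 519).
Cyp4a12a, chr4:115326628-115326687, plus strand: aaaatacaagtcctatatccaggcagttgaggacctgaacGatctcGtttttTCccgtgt
Cyp4a12b, chr4:115432881-115432940, plus strand: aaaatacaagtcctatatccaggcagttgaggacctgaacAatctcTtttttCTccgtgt
Acaa1a, chr9:119346483-119346542, plus strand: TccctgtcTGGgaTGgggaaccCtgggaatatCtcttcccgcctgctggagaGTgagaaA
Acaa1b, chr9:119151842-119151901, minus strand: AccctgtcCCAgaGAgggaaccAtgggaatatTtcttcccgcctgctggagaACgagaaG

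Of the 31-base words in their transcripts, 62.2% for Cyp4a12a, 62.9% for Cyp4a12b, 44.9% for Cyp4a10, 40.0% for Acaa1b and 18.1% for Acaa1a also occurred in another gene. Cyp4a12a and Cyp4a12b shared 1487 such words with each other, Cyp4a10 shared 769 with Cyp4a32 and 558 with Cyp4a31, and Acaa1a shared 773 with Acaa1b. The values of these 5 members are uncertain where the counting split or dropped shared reads. For Cyp4a14 (1.99%) and Ehhadh (0.169%) the share was small, and for Pex11a and Hsd17b4 it was 0.

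For the Acaa1 pair the promoter windows at RefSeq's starts are printed because the ratio of these 2 transcripts moved with the diet, as given further on. In RefSeq's promoter table (GRCm38.p6, from 250 bases before to 50 bases after the start), the longest run shared by the 2 windows was 8 of 300 bases. The Acaa1a window lies inside the gene as the FPKM table bounds it, which begins at 119339676, so RefSeq's start differs from that one and sequence upstream of the latter was not compared.
Acaa1a, chr9:119341044-119341343, plus strand: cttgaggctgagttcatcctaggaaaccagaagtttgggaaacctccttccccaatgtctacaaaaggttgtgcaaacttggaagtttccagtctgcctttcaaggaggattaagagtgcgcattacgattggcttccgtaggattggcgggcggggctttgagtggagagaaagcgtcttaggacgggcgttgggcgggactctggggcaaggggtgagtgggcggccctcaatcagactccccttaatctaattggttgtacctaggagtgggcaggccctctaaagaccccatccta
Acaa1b, chr9:119157044-119157343, minus strand: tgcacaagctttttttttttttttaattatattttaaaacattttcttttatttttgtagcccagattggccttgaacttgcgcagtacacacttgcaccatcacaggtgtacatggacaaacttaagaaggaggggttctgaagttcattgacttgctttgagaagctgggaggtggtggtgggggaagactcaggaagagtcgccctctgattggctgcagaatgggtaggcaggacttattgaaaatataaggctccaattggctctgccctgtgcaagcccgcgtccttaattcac

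Promoters of 4 of the 9 members (Ehhadh, Acaa1a, Acaa1b and Pex11a) were taken from that table. They were searched on both strands for AGGTCA, the element bound by many nuclear receptors, for AGGTCANAGGTCA, the spacing bound by PPARα with RXR, with up to 2 mismatches, and for TTCNNNGAA, the core bound by STAT5. The letters of the second motif contain the first, but a match with mismatches need not. None of the 3 was present in these 4 windows, against 16.2%, 3.87% and 8.33% of all 32544 promoters of the same length. Hsd17b4 was left out of this search, and no entry was found for the 4 Cyp4a genes.

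In the mouse genome (GRCm38) the 4 Cyp4a members lay within 234.6 kb of chromosome 4, in the order Cyp4a12a (115299046 to 115332815, plus strand), Cyp4a12b (115411624 to 115439034, plus), Cyp4a14 (115486200 to 115496142, minus) and Cyp4a10 (115518264 to 115533649, plus), with gaps of 78.8, 47.2 and 22.1 kb. Acaa1b (chromosome 9, 119148023 to 119157093, minus) and Acaa1a (119339676 to 119350299, plus) were 182.6 kb apart. Ehhadh lay on chromosome 16 (21761287 to 21787844, minus) and Pex11a on chromosome 7 (79735957 to 79743131, minus).

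The libraries held 15641544 to 23276329 fragments assigned to genes, and a member's value in a library rested on 228 to 146620 fragments, so counting error was small beside the spread between mice. Thbs1, which encodes TSP-1, was read first as a check of the labels. The NDWT replicates 1 to 5 had 0.170, 0.326, 0.268, 0.058 and 0.165 FPKM, and the NDKO replicates 1.005, 1.5, 0.986, 1.895 and 1.132 FPKM. These NDWT values rested on only 6 to 33 fragments each, so the size of log2FCs against NDWT is uncertain for this gene. The HFWT replicates had 5.766, 6.099, 3.46, 3.913 and 3.858 FPKM, and the HFKO replicates 3.304, 3.316, 3.048, 3.141 and 4.398 FPKM. On the control diet every library labelled TSP-1 null was thus higher than every library labelled WT (log2FC 2.28, limma with Benjamini-Hochberg adjustment, FDR 1.02e-05), and on CDAHFD the labels did not differ past the threshold (log2FC −0.39, FDR 0.408). A value summed over the gene cannot tell transcripts of a disrupted allele by their exons. Genotypes are therefore given as the libraries were labelled, and all genotype differences below carry this reservation.

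DEGs were called at an FDR under 0.05 and an absolute log2FC above 0.58 in a limma fit of all 20 libraries over all 14524 genes. Fold changes come from this fit of log2 values, and so differ from ratios of the arithmetic means. The question of the diet comparisons was how CDAHFD changed the liver of each genotype. In WT mice all 9 members fell on CDAHFD, from 1.55-fold for Acaa1a to 6.75-fold for Cyp4a10, and for all 9 the 5 HFWT values lay below the 5 NDWT values. Of all tested genes 4.62% were called lower in that comparison and 5.7% were lower without overlap. In TSP-1 null mice 7 of the 9 members fell, from 1.54-fold for Pex11a to 6.69-fold for Cyp4a12b, against 4% of all tested genes called lower. Of the 9, 7 were lower without overlap (all genes 5.03%), with Pex11a and Cyp4a14 as the exceptions. Acaa1a and Hsd17b4 passed the FDR in TSP-1 null mice but not the fold threshold. The 9 members showed median log2FCs of −1.96 (WT) and −1.40 (TSP-1 null), and all tested genes of 0.53 and 0.50, so relative to all genes the members' medians were −2.49 and −1.90. In pieces of whole liver, fewer cells of a type and less RNA per cell cannot be told apart.

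Between the genotypes the comparison asked what the lack of TSP-1 changed on each diet, and most members were not called. On the control diet 3 of 9 members were lower in livers labelled TSP-1 null, namely Pex11a, Cyp4a12a and Cyp4a12b, against 3.03% of all tested genes. These 3 and Hsd17b4 were lower without overlap, 4 of 9 against 6.69% of all genes. On CDAHFD the pair Cyp4a12a and Cyp4a12b was lower, 2 of 9 against 0.33% of all genes, and both were lower without overlap (all genes 4.13%). The median log2FC of the members was −0.32 on the control diet and 0.13 on CDAHFD, and that of all tested genes −0.07 and −0.10. The interaction (log2FC between genotypes under CDAHFD minus that under the control diet) passed the FDR for 0 of 9 members in limma (0.31% of all genes were called with a negative and 0.337% with a positive interaction). It had an unadjusted p under 0.05 for 4 of them, Pex11a, Hsd17b4, Acaa1b and Cyp4a12b. The median interaction was 0.38 for the members and −0.03 for all genes. Each genotype comparison shares its groups with the diet comparisons, so these values are not independent of each other.

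**Figure D1:**
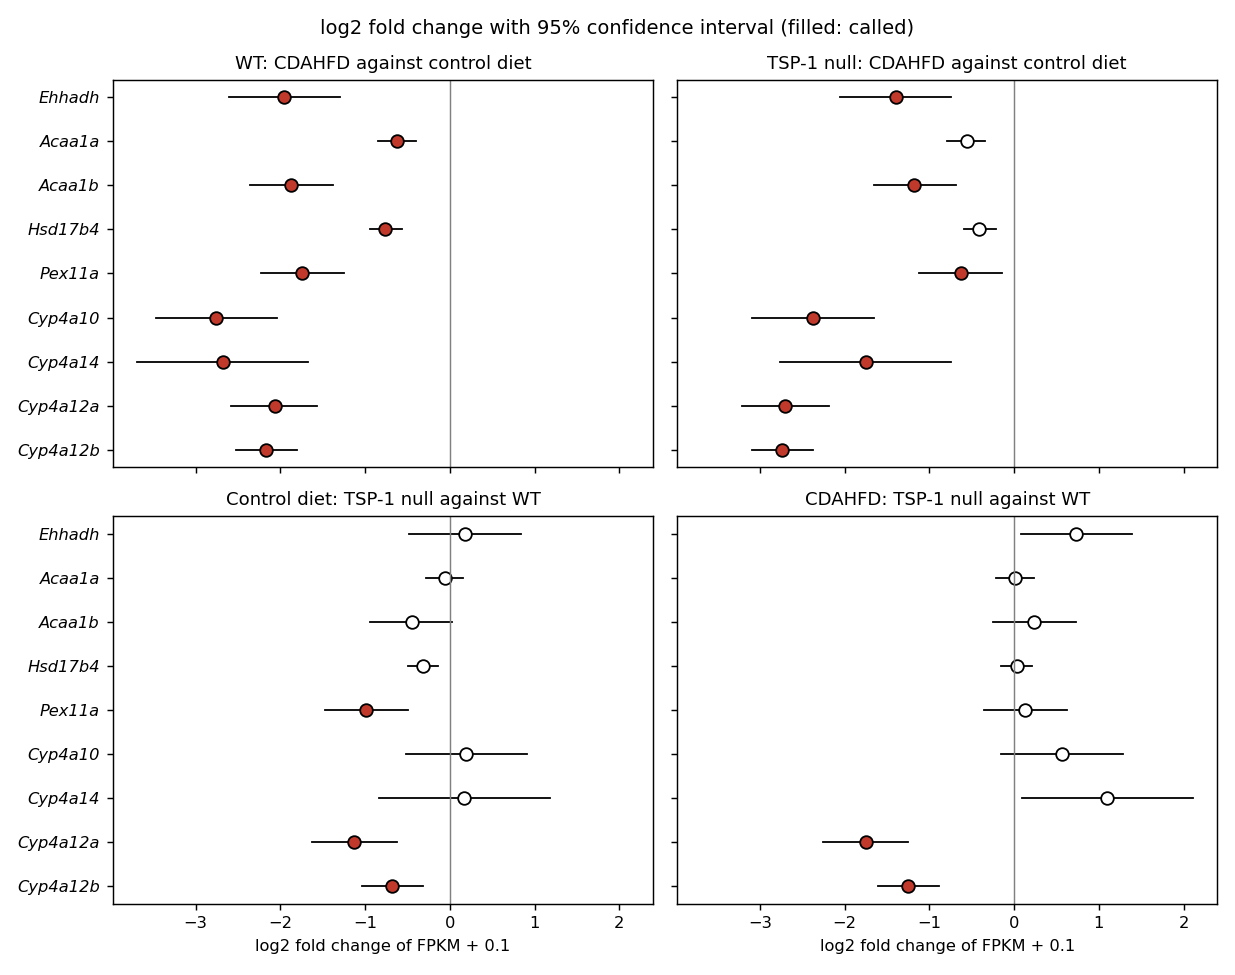
Log2FC (x axis) of each of the 9 members (y axis) in the 4 comparisons (panels), with 95% confidence intervals as bars and a grey line at 0. Filled points passed both thresholds. All 9 points of the WT diet comparison lie between −2.76 and −0.63, and in the CDAHFD genotype comparison Cyp4a12a and Cyp4a12b stand alone on the left at −1.75 and −1.25.

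Among the members, levels on the control diet ran from 71.0 FPKM for Cyp4a12b to 1781 FPKM for Acaa1b (NDWT means). Per length of transcript, Acaa1b, Cyp4a10, Cyp4a14 and Ehhadh made up the upper tier in NDWT, and each overlapped the next in this order. Ehhadh lay above Hsd17b4, and Hsd17b4 above Pex11a, without overlap. Below them came Cyp4a12a (114 ± 13.5), Acaa1a (103 ± 8.5) and Cyp4a12b. In HFKO the order was Acaa1b, Cyp4a14, Cyp4a10, Ehhadh, Hsd17b4, Acaa1a, Pex11a, Cyp4a12a and Cyp4a12b. The Cyp4a12 pair stood in the 2 lowest places in NDKO and HFWT as well.

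**Figure D2:**
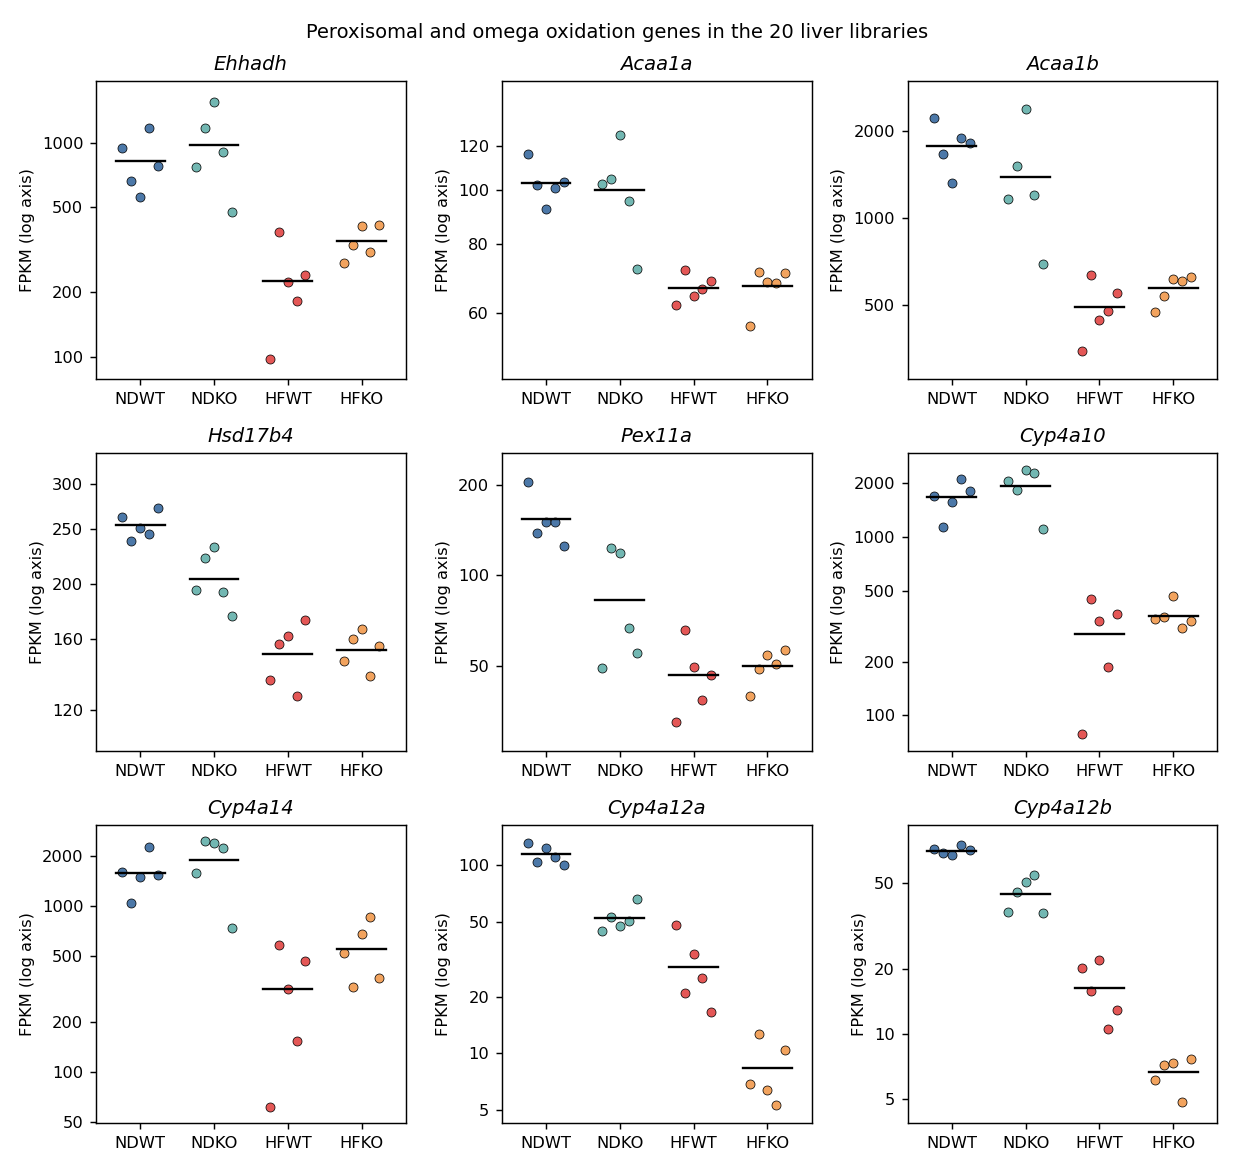
FPKM (log axis) of the 9 members in each of the 20 libraries, by group, with a line at the arithmetic mean of 5 mice. In every panel the HFWT points lie below the NDWT points, and the HFWT points of Cyp4a14 spread from 61.7 to 584 FPKM.

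Ehhadh, the L-bifunctional enzyme that hydrates and dehydrogenates straight-chain and dicarboxylic intermediates, was expressed at 947, 662, 558, 1178 and 782 FPKM in NDWT and at 766, 1175, 1555, 902 and 475 FPKM in NDKO. On CDAHFD it stood at 97.8, 381, 223, 182 and 241 FPKM in HFWT and at 274, 332, 407, 307 and 410 FPKM in HFKO. In both genotypes every CDAHFD liver was below every control liver, and the lowest HFWT liver, replicate 1, was 3.9 times below the highest. In WT it fell, with means of 825 ± 244 FPKM on the control diet and 225 ± 103 FPKM on CDAHFD (log2FC −1.96, SE 0.31, FDR 1.55e-05). It also fell among TSP-1 null livers, with means of 975 ± 411 and 346 ± 60.7 FPKM (log2FC −1.40, FDR 0.000552). It was not called between the genotypes, with a log2FC of 0.18 on the control diet (95% interval −0.48 to 0.84) and of 0.73 on CDAHFD (0.08 to 1.39, FDR 0.239).

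Hsd17b4 (ENSMUSG00000024507.6), the D-bifunctional enzyme that carries out the same steps for very long-chain and branched substrates, had the smallest within-group SD of the 9 members when pooled over the 4 groups. Its FPKM was 262, 238, 251, 245 and 273 in NDWT and 196, 222, 233, 194 and 176 in NDKO. On CDAHFD it was 136, 157, 162, 127 and 173 FPKM in HFWT and 147, 160, 167, 138 and 155 in HFKO. The 5 NDKO livers lay below the 5 NDWT livers and above the 5 HFKO livers, while the HFKO livers lay within the range of HFWT. It fell 1.69-fold in WT (log2FC −0.76, SE 0.09, FDR 2.81e-07). In TSP-1 null mice the log2FC was −0.41 (95% interval −0.59 to −0.22, FDR 0.000401), and between the genotypes on the control diet it was −0.32 (−0.50 to −0.14, FDR 0.022), both under the fold threshold. On CDAHFD the genotype difference was 0.03 (−0.15 to 0.21).

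Acaa1a and Acaa1b encode the thiolases that cleave acetyl-CoA off in the last step, and Acaa1b was the more abundant. Acaa1b stood at 2214, 1663, 1318, 1894 and 1816 FPKM in NDWT and at 1162, 1509, 2383, 1197 and 694 FPKM in NDKO. Its values on CDAHFD were 345, 633, 444, 478 and 551 FPKM in HFWT and 473, 536, 616, 603 and 626 FPKM in HFKO. The CDAHFD livers of each genotype lay below their controls, and the NDKO livers spread across and beyond the NDWT range. Acaa1b fell 3.66-fold in WT (log2FC −1.87, SE 0.23, FDR 6.72e-07) and 2.26-fold in TSP-1 null mice (log2FC −1.18, FDR 0.000167). Between the genotypes the log2FC was −0.45 on the control diet (95% interval −0.94 to 0.03, FDR 0.218) and 0.24 on CDAHFD (−0.25 to 0.73). Without NDKO replicate 3, the highest of its group, the control diet difference passed the threshold (log2FC −0.68, FDR 0.0362).

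Acaa1a moved less than its near copy. Its FPKM was 116, 102, 92.5, 101 and 103 in NDWT and 103, 105, 126, 95.3 and 71.9 in NDKO. It was 61.9, 71.7, 64.2, 66.2 and 68.5 in HFWT and 56.8, 71.0, 68.2, 67.9 and 70.9 in HFKO. All CDAHFD livers lay below all livers of the same genotype on the control diet, although NDKO replicate 5 was only just above the highest HFKO liver. Acaa1a fell 1.55-fold in WT (log2FC −0.63, SE 0.11, FDR 3.13e-05). In TSP-1 null mice the log2FC was −0.56 (95% interval −0.79 to −0.34, FDR 0.000113), short of the fold threshold, which it passed without NDKO replicate 5 (−0.67) or without HFKO replicate 2 or 5 (−0.58 in both). The genotypes differed by −0.06 (−0.28 to 0.16) on the control diet, and under CDAHFD by 0.01 (−0.22 to 0.23), neither of them called.

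The ratio of the thiolases, Acaa1b to Acaa1a within a library, is free of the scaling between libraries. Its geometric mean fell from 17.1 in NDWT to 7.22 in HFWT (log2 difference −1.24) and from 13.0 in NDKO to 8.5 in HFKO (log2 difference −0.61), without overlap in either genotype (p = 0.00794 by a two-sided exact permutation test, which can give none smaller, and 0.0317 adjusted over 24 tests). The difference between the genotypes in this ratio did not pass on either diet. Of 24 tests, made for 6 ratios in 4 comparisons, 6 passed, and all 6 had this smallest p. The ratio of Ehhadh to Hsd17b4, of the L- to the D-bifunctional enzyme, fell from 4.44 to 2.23 in TSP-1 null mice (log2 difference −0.99, exact permutation p = 0.00794, adjusted 0.0317). In WT it went from 3.14 to 1.37 (log2 difference −1.20), and this did not pass (exact permutation p = 0.0159, adjusted 0.0544). The ratios of Cyp4a14 to Cyp4a10, of Cyp4a12b to Cyp4a12a and of Acaa1a to Hsd17b4 passed in no comparison. All 6 calls lie at the smallest p that 5 against 5 allows, and leaving out 1 library of NDKO (1 to 4) or HFKO (1 to 5) left none of them under 0.05 after adjustment (0.0544).

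Pex11a, a membrane protein of the peroxisome that takes part in its elongation and division, differed between the genotypes on the control diet. It stood at 205, 138, 151, 150 and 125 FPKM in NDWT and at 48.9, 123, 119, 66.8 and 55.0 FPKM in NDKO. On CDAHFD its FPKM was 32.4, 65.6, 49.6, 38.5 and 46.5 in HFWT and 39.6, 48.8, 54.1, 50.5 and 56.5 in HFKO. All NDKO livers were below all NDWT livers, NDKO replicates 2 and 3 only just so, while NDKO replicates 1 and 5 overlapped the HFKO values. Pex11a was lower in NDKO than in NDWT (means of 82.5 ± 35.6 and 154 ± 30.3 FPKM, log2FC −0.99, SE 0.23, FDR 0.00897), and on CDAHFD the difference was 0.13 (95% interval −0.36 to 0.62, FDR 0.799). The interaction was 1.12 (SE 0.33, 95% interval 0.42 to 1.81, unadjusted p = 0.00314 in limma, FDR 0.108), so the genotype effect was not shown to differ between the diets over all genes, though it passed without NDKO replicate 2 (1.29, FDR 0.0413).

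On CDAHFD Pex11a fell 3.35-fold in WT (log2FC −1.74, SE 0.23, FDR 1.73e-06) and 1.54-fold in TSP-1 null mice (log2FC −0.63, 95% interval −1.12 to −0.14, FDR 0.022). The call in TSP-1 null mice was lost without NDKO replicate 2 (−0.46, FDR 0.078), NDKO replicate 3 (−0.47, FDR 0.0762) or HFKO replicate 1 (−0.55, FDR 0.0581), and when libraries were scaled to hepatocyte markers (−0.32, FDR 0.252). Within libraries, the ratio of Pex11a to Ehhadh was lower in NDKO than in NDWT (0.0849 against 0.19, log2 difference −1.16) and lower in HFKO than in HFWT (0.145 against 0.221, −0.60). It was higher in HFKO than in NDKO (log2 difference 0.77). Each of these 3 had an exact permutation p of 0.00794, adjusted 0.0317. In WT mice the ratio went from 0.19 to 0.221 (exact permutation p = 0.429). By these labels, the ratio was thus lower in TSP-1 null than in WT livers on both diets. On CDAHFD neither gene was called between the genotypes by itself (log2FC 0.13 for Pex11a and 0.73 for Ehhadh).

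**Figure D3:**
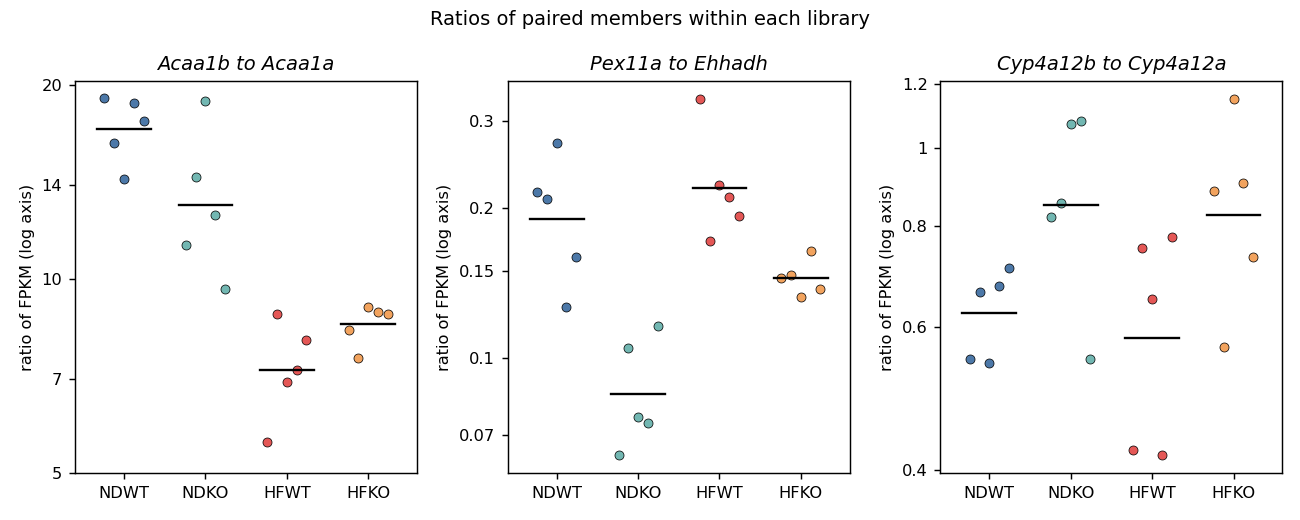
Within-library ratios of FPKM (log axis) for Acaa1b to Acaa1a, Pex11a to Ehhadh and Cyp4a12b to Cyp4a12a in the 4 groups, 1 point per mouse, with a line at the geometric mean. The Acaa1b to Acaa1a ratio is lower in every CDAHFD library than in any control library of its genotype, and the Pex11a to Ehhadh ratio is lower in every NDKO library than in any NDWT library.

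Cyp4a10 and Cyp4a14, the omega hydroxylases that PPARα is best known to induce, had the largest fall of the 9 members in WT livers. Cyp4a10 stood at 1706, 1143, 1577, 2106 and 1802 FPKM in NDWT and at 2060, 1831, 2372, 2292 and 1110 FPKM in NDKO. On CDAHFD it was at 78.8, 450, 336, 187 and 371 FPKM in HFWT and at 346, 358, 464, 308 and 337 FPKM in HFKO. Control and CDAHFD livers were far apart, and the HFWT livers spread 5.7-fold, with replicate 1 lowest and replicate 2 highest. The fall was 6.75-fold in WT (log2FC −2.76, SE 0.34, FDR 6.52e-07) and 5.2-fold in TSP-1 null mice (log2FC −2.38, FDR 4.52e-06). In WT this change stood at the 0.344 percentile of all tested genes. Neither genotype difference was called, and the intervals were −0.52 to 0.91 (control diet) and −0.15 to 1.29 (CDAHFD).

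Cyp4a14 was at 1606, 1040, 1501, 2289 and 1540 FPKM in NDWT and at 1580, 2481, 2406, 2245 and 741 FPKM in NDKO. Its FPKM on CDAHFD was 61.7, 584, 319, 153 and 464 in HFWT and 521, 326, 678, 855 and 369 FPKM in HFKO. The WT groups did not overlap, but in TSP-1 null mice HFKO replicate 4 exceeded NDKO replicate 5, the lowest of its group. Cyp4a14 fell 6.41-fold in WT (log2FC −2.68, SE 0.48, FDR 5.67e-05) and 3.36-fold in TSP-1 null mice (log2FC −1.75, 95% interval −2.76 to −0.74, FDR 0.00314). On CDAHFD its genotype difference was 1.10 (95% interval 0.09 to 2.11), at the 99.4 percentile of all tested genes, but the adjusted value was 0.252 and the groups overlapped. Within HFWT its values spread 9.46-fold, the widest range of any member in any group.

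Cyp4a12a and Cyp4a12b, which also make the vasoactive eicosanoid 20-HETE, were lower in livers labelled TSP-1 null on both diets. Cyp4a12a stood at 132, 104, 125, 111 and 100 FPKM in NDWT and at 44.9, 53.1, 47.6, 50.6 and 66.2 FPKM in NDKO. On CDAHFD it was at 47.9, 20.9, 33.8, 25.2 and 16.5 FPKM in HFWT and at 6.9, 12.6, 6.4, 5.33 and 10.4 FPKM in HFKO. The genotypes did not overlap on either diet, and HFKO was lowest of all groups. Cyp4a12a was 2.18-fold lower in NDKO than in NDWT (log2FC −1.13, SE 0.24, FDR 0.00494) and 3.37-fold lower in HFKO than in HFWT (log2FC −1.75, 95% interval −2.26 to −1.25, FDR 0.000476). On CDAHFD it fell 4.21-fold in WT (log2FC −2.07, FDR 2.89e-07) and 6.5-fold in TSP-1 null mice (log2FC −2.70, FDR 9.65e-09).

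Cyp4a12b followed its near copy. Its FPKM was 72.4, 69.1, 67.4, 74.9 and 71.2 in NDWT and 36.9, 45.5, 50.9, 54.6 and 36.3 in NDKO. It was 20.3, 15.7, 22.0, 10.5 and 12.8 in HFWT and 6.11, 7.15, 7.34, 4.82 and 7.67 in HFKO. Again no 2 groups overlapped in the comparisons made. The genotype difference was 1.6-fold on the control diet (log2FC −0.68, SE 0.17, FDR 0.0132) and 2.38-fold on CDAHFD (log2FC −1.25, 95% interval −1.61 to −0.89, FDR 0.000473). The diet lowered it 4.5-fold in WT and 6.69-fold in TSP-1 null mice (log2FC −2.17 and −2.74, FDR 1.49e-09 and 8.34e-11). The interaction was −0.63 (95% interval −1.34 to 0.09) for Cyp4a12a and −0.57 (unadjusted p = 0.0304 in limma, FDR 0.267) for Cyp4a12b. Under quantile normalization the control diet difference of Cyp4a12b was −0.57, just short of the fold threshold.

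Because reads of the pair may be exchanged, the sum of both was also taken. Cyp4a12a and Cyp4a12b together amounted to 185 ± 13.6 FPKM in NDWT and 97.3 ± 9.12 FPKM in NDKO, and on CDAHFD to 45.1 ± 16.2 FPKM in HFWT and 15 ± 3.92 FPKM in HFKO. The 4 ranges were 171 to 204, 81.8 to 105, 29.4 to 68.2 and 10.1 to 19.8 FPKM, with a gap between each group and the next. Cyp4a10 and Cyp4a14 together amounted to 3262 ± 789, 3824 ± 1181, 601 ± 362 and 913 ± 230 FPKM in the same order. The Cyp4a12 pair therefore gave 5.59%, 2.79%, 11.4% and 1.77% of the FPKM of all 4 (group means), with a range in HFWT of 3.4% to 32.7%. The highest share belonged to HFWT replicate 1, whose Cyp4a10 and Cyp4a14 were lowest and whose Cyp4a12a was highest in its group.

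Mice of 1 group differed in a common way across several members, though not all. After each gene's group mean was taken off, the log2 values of Ehhadh and Acaa1b followed each other over the 20 libraries (Pearson r = 0.89, permutation p adjusted over 36 pairs 0.00036, Spearman rho = 0.89, adjusted 0.00072, r = 0.85 without the 2 libraries farthest out in Ehhadh). So did Acaa1a and Acaa1b (r = 0.92, permutation p adjusted 0.0009, rho = 0.84, adjusted 0.00234, r = 0.80 without 2 libraries), which share transcript sequence. Cyp4a10 and Cyp4a14 did so as well (r = 0.89, permutation p adjusted 0.00194, rho = 0.73, adjusted 0.0159, r = 0.78 without 2 libraries). Ehhadh and Cyp4a10, a peroxisomal and a microsomal enzyme, had r = 0.82 (permutation p adjusted 0.00168, rho = 0.71, adjusted 0.00792, r = 0.67 without 2 libraries). Ehhadh and Pex11a had r = 0.79 (permutation p adjusted 0.00319, rho = 0.81, adjusted 0.00312, r = 0.74 without 2 libraries). Cyp4a14 and Cyp4a12a went in opposite directions (r = −0.74, permutation p adjusted 0.00961, rho = −0.62, adjusted 0.0398, r = −0.59 without 2 libraries). For Cyp4a12a and Cyp4a12b r was 0.53 and did not pass (permutation p adjusted 0.131, rho = 0.51, adjusted 0.122, r = 0.44 without 2 libraries). Cyp4a12b passed with none of the other members, and not all of the 36 pairs are given here. Values of a library share its total, so members of 1 library are not independent of each other.

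The libraries at the ends of these ranges were few. HFWT replicate 1 was lowest and HFWT replicate 2 highest of their group in the same 6 members, Ehhadh, Acaa1a, Acaa1b, Pex11a, Cyp4a10 and Cyp4a14. NDKO replicate 5 was lowest in 7 members and highest in Cyp4a12a, and NDKO replicate 3 was highest in 5. The pooled within-group SD on the log2 scale was widest for Cyp4a14 (0.83, the 93.9 percentile of tested genes), Cyp4a10 (0.59) and Ehhadh (0.54), and narrowest for Acaa1a (0.18) and Hsd17b4 (0.14), with a median of 0.22 over all tested genes. What set these mice apart was not tested.

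**Figure D4:**
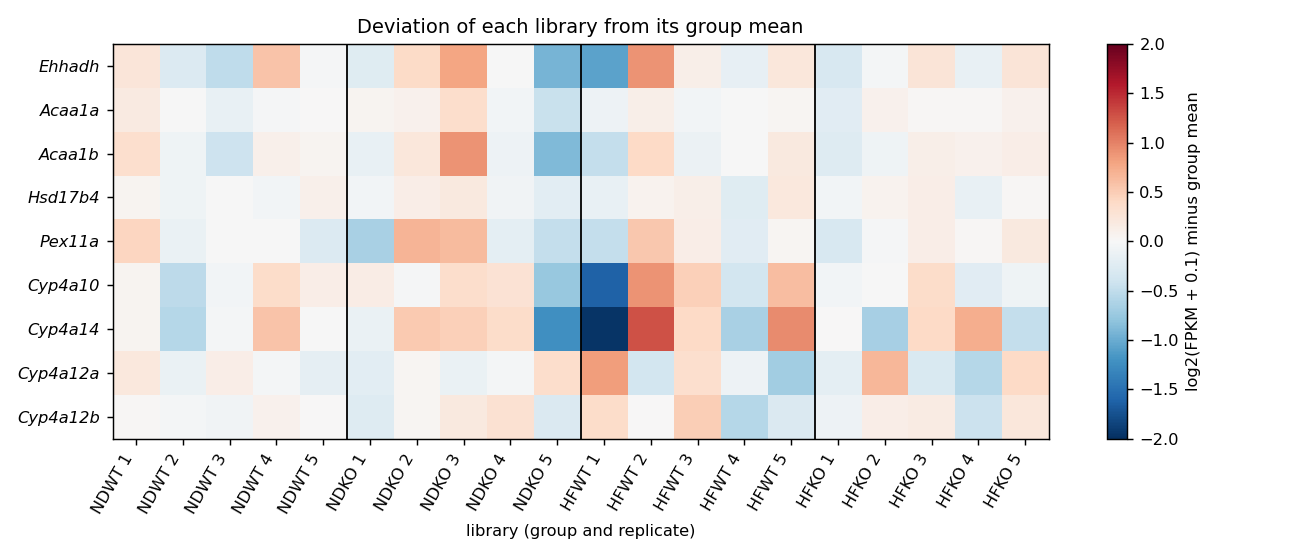
Deviation of each library from its group mean on the log2 scale (colour) for the 9 members (y axis) in the 20 libraries (x axis). HFWT replicate 1 and NDKO replicate 5 are low in most members and high in Cyp4a12a.

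Other genes of the same pathways were read from lists that hold none of the 9 members. Of 27 further genes of peroxisomal beta oxidation, 25 were tested, of which 16 fell and 2 rose on CDAHFD in WT and 12 fell and 3 rose in TSP-1 null mice (median log2FC −0.75 and −0.56). Scp2, the thiolase of branched substrates (log2FC −0.85 and −0.72), Slc27a2, which activates very long-chain fatty acids (−1.36 and −1.13), and Abcd3, a peroxisomal importer (−1.21 and −0.71), fell in both genotypes. The importer Abcd2 (0.81 and 1.29) and the oxidase Acox3 (0.61 and 0.77) were called higher. Of all tested genes 44.1% (WT) and 41.9% (TSP-1 null) were called higher on CDAHFD, and 4.62% and 4% lower. Relative to the median of all genes, the log2FCs were 0.28 and 0.80 for Abcd2 and 0.08 and 0.28 for Acox3. Between the genotypes 1 of the 25 was called on the control diet, Nudt7, a peroxisomal hydrolase of coenzyme A (log2FC −0.85, FDR 0.0202), and 0 on CDAHFD in limma.

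Peroxins, which build the peroxisome and import its enzymes, were read beside Pex11a. Of 15 peroxins tested, 1 was called lower on CDAHFD in TSP-1 null mice (Pex16, log2FC −0.64). Over the 15 the median log2FC was −0.33 in WT and −0.16 in TSP-1 null livers, that is −0.86 and −0.66 relative to all genes. Pex11g, a paralog of Pex11a, had log2FCs of −0.10 and −0.05.

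Of 17 further genes of omega oxidation 12 were tested, and 7 fell and 2 rose on CDAHFD in WT, and 4 fell and 2 rose in TSP-1 null mice. Within the Cyp4a family, Cyp4a32 fell in both (log2FC −1.84 and −2.54), and unlike the Cyp4a12 pair it was higher in NDKO than in NDWT (125 ± 25.3 against 67.6 ± 10.5 FPKM, log2FC 0.87, FDR 0.00433). Cyp4a32 shares transcript sequence with Cyp4a10, which had a log2FC of 0.19 in that comparison. Aldh3a2, the dehydrogenase that turns fatty aldehydes into acids, was lower in NDKO (log2FC −0.96, FDR 0.00849), and Por, the reductase that supplies P450s with electrons, was higher (0.81, FDR 0.0142). The family members Cyp4f18 (log2FC 3.15 and 2.83) and Cyp4f16 (2.69 and 2.39) rose on CDAHFD, while Cyp4f15 fell (−0.89 and −1.11).

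A list of PPARα and its other known targets held 28 genes, 27 of them tested, with 17 lower and 2 higher in WT on CDAHFD and 8 lower and 1 higher in TSP-1 null mice. Ppara itself fell (log2FC −1.22 and −0.65), as did Acot1, a cytosolic acyl-CoA thioesterase (−4.22 and −2.78), and Acsl1, an acyl-CoA synthetase (−2.36 and −1.77). Cd36, a fatty acid carrier of the cell surface, rose (1.95 and 2.94). On the control diet 4 genes of the list were lower and 1 was higher in TSP-1 null livers, and on CDAHFD 0 were called in limma.

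Since Cyp4a12a and Cyp4a12b are genes of the male liver, lists of sex-biased liver genes were read beside them. Of 10 male-biased genes, 8 fell on CDAHFD in WT livers and 9 in TSP-1 null livers, among them Elovl3 (log2FC −4.02 and −4.46), Cyp7b1 (−2.76 and −3.13) and Cyp2d9 (−2.02 and −2.62). Between the genotypes 0 of the 10 were called on either diet in limma, with medians of −0.08 on the control diet and −0.65 on CDAHFD. Cyp4a12a and Cyp4a12b were called on both, but this does not set them apart by size. Hsd3b5 had log2FCs of −1.35 and −1.94 (limma FDR 0.17 and 0.128), against −1.13 and −1.75 for Cyp4a12a. Some went the other way, such as Moxd1 on the control diet (1.32) and Ugt2b38 on CDAHFD (0.67). Of 11 female-biased genes 4 were tested, and Cyp2a4 (log2FC 5.24 and 5.84) and Cyp2b9 (4.49 and 5.67) rose on CDAHFD, while Cyp17a1 fell (−2.60 and −2.71). On the control diet 2 of these 4 were higher in livers labelled TSP-1 null, Cux2, a transcription factor of the female liver (log2FC 2.49, FDR 0.00188, no overlap), and Cyp17a1 (log2FC 1.48, FDR 0.0381, with overlap), and on CDAHFD 0 of the 4 were called in limma.

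Over the 20 libraries, whose groups set most of the pattern, the genes most like each member were found by Pearson r on the log2 scale among 11655 genes, as a description. Cyp4a10 was followed most closely by Retsat (r = 0.984), a retinol saturase, which was also nearest to Ehhadh (0.951) and to Cyp4a14 (0.93). Acaa1b was nearest to Dhrs4 (0.981), Acaa1a to Eci1 (0.97), an isomerase of unsaturated acyl-CoA, and Hsd17b4 to Hadha (0.966), a subunit of the mitochondrial trifunctional protein. Pex11a was nearest to Gm15441 (0.967). Cyp4a12b was nearest to Mgst1 (0.965) and to Elovl3 (0.961), and Cyp4a12a to Mbl1 (0.945) and to Hsd3b5 (0.943), another gene of the male liver.

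Markers of several other cell types moved with the diet. The summed FPKM of 10 hepatocyte markers ranged from 35972 to 44222 in NDWT livers, 40377 to 47686 in NDKO livers, 27412 to 39528 in HFWT livers and 36242 to 47331 in HFKO livers, with 3 of the 10 called lower on CDAHFD in WT livers and 2 in TSP-1 null livers. Markers of macrophages (9 of 10 in the table) summed to 126 to 172, 121 to 210, 1131 to 1507 and 686 to 1439 FPKM in the same order, with 7 higher and 1 lower in each genotype. The 10 stellate cell markers summed to 58.0 to 73.6, 72.8 to 79.7, 261 to 500 and 277 to 358 FPKM, all 10 higher, and the 6 cholangiocyte markers to 15.2 to 18.0, 12.4 to 15.6, 292 to 488 and 182 to 360 FPKM, with all 5 tested higher. Of the lymphocyte markers 7 of 8 rose in each genotype, as did all 3 neutrophil markers tested, while the neutrophil marker Mpo stayed below 0.5 FPKM in every library. The 6 endothelial markers summed to 44.5 to 48.5, 36.8 to 46.3, 41.2 to 58.6 and 44.8 to 70.7 FPKM. Of these 6, 1 was called higher in WT livers and 2 in TSP-1 null livers. Of all tested genes 44.1% (WT) and 41.9% (TSP-1 null) were called higher on CDAHFD. Kidney tubule markers, of a tissue that also expresses Cyp4a genes, were below 0.5 FPKM in every library in all 5 cases, as were Adipoq, Lep, Retn and Plin1 of 5 adipocyte markers. Scaling to the hepatocyte markers, chosen after the data were seen, left the direction of all 9 members in WT on CDAHFD, but the changes of Acaa1a (−0.31) and Hsd17b4 (−0.44) no longer reached the fold threshold. Beyond this scaling, the part of the cell markers in the members' changes was not tested.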

How the data were processed

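RNA of 20 livers was sequenced, 5 per group. The authors aligned the reads to the genome with STAR 2.5.2 and counted them with featureCounts of Subread 1.5.1, within QuickRNASeq, per the labels and the study's methods. The submitters' processing notes name the human build GRCh38, but the mouse identifiers and coordinates of the table are those of GRCm38. The deposited table holds FPKM for 38924 genes, which the authors did not scale further between libraries, so values are shares of all assigned fragments. Strand use in counting is not given in the sources used here. Whole fragments were recovered from at least 99.74% of the checked values (within 0.02 fragment beyond rounding), which gave 15641544 to 23276329 fragments per library.

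Groups followed the sample labels. A single limma fit (version 3.58.1, R 4.3.3, eBayes with trend) took log2(FPKM + 0.1) of all 20 libraries with 1 mean per group. Genes entered it when at least 5 libraries exceeded 0.5 FPKM, which left 14524. DEGs had an absolute log2FC above 0.58 and an FDR under 0.05 (Benjamini-Hochberg over all these genes, two-sided). Fold changes are on this scale, which understates those of low genes. The function was tested on simulated data first. Two-sided exact permutation tests served for ratios within libraries, and deviations from group means were correlated with 100000 permutations within groups. The animals were separate, and p-values measure the spread between them. Promoter and coding sequences came from RefSeq (GRCm38.p6) and from GENCODE gene models on GRCm38, read with Biopython 1.88. Further work used pandas 2.3.3, scipy 1.17.1, numpy 2.4.6 and matplotlib 3.10.9 in Python 3.11.15. Named are the 9 members, Thbs1, the list genes with the lowest FDR in a comparison and the 3 nearest genes of each member; other list genes were named after their values were seen. The members, the lists and the tests were chosen with earlier results of these data known. Alternatives were other pseudocounts, filters, scalings and fits, a replicate block, and each library left out. Fragments carry no molecular identifiers, so depth covers counting error only. Values of some list genes are not reported here.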

Additional observations from a re-analysis of the deposited data

Results flagged for a closer look

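Among 40 groups of 5 libraries (the 9 members and Thbs1 in 4 groups each), 2 held a library far from the other 4 by Dixon's criterion (a gap over 0.71 of the group's range), and chance alone marks about 1 in 20 groups. Acaa1a was at 56.8 FPKM in HFKO replicate 1, the next lowest HFKO liver being at 67.9 FPKM (gap 0.78 of the range). Thbs1 was at 4.40 FPKM in HFKO replicate 5, the next highest being at 3.32 FPKM (gap 0.801 of the range). The genotype difference of Thbs1 differed between the diets by an interaction test in limma, with a log2 value of −2.66 (FDR 0.0023), since the gene was higher in livers labelled TSP-1 null on the control diet and not on CDAHFD. The size of this interaction depends on NDWT values that rested on 6 to 33 fragments each. What sets the flagged values was not tested.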

How the results depend on the processing

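Of 666 values of single members under 15 other settings, 655 stayed on their side of the thresholds, 4 lost and 7 gained a call. Of the called values 0 turned round, and the direction of values not called was not compared. With each library left out, 532 of 540 stayed on their side of the thresholds. The count of members called with a positive interaction, 0 as reported, ranged from 0 to 1 with a library left out (1, Pex11a, without NDKO replicate 2). With the replicate block the members called lower numbered 9, 7, 3 and 2 in the 2 diet and 2 genotype comparisons, as without it. The equal replicate numbers did not pair the mice: 0 of 5 pairs correlated over 0.1 in any comparison (−0.133 to 0.0807). Of the 6 ratio tests that passed, 0 passed as paired tests under the replicate block, where the smallest p is 0.0625, and 0 to 9 passed with a library left out (9 without NDKO replicate 5, 8 without HFWT replicate 2). Groups of 4 and 5 allow no p below 0.0159. Median of ratios scaling, which centres changes near 0, called Acaa1a (−1.10) and Hsd17b4 (−0.94) lower in TSP-1 null mice on CDAHFD, and quantile normalization called Acaa1a (−0.60). The same scaling by median of ratios moved Acaa1a to −1.19 and Hsd17b4 to −1.32 in WT, and Pex11a to −1.16 in TSP-1 null mice, while quantile normalization moved Acaa1b there to −0.63. Scaling to hepatocyte markers called Acaa1b lower on the control diet (−0.70, FDR 0.0363). DEGs of all genes split into 6412 higher and 671 lower in WT on CDAHFD, and into 3299 and 2242 under median of ratios scaling. The fit of only the groups compared was not run for the interaction. The 5 mice a group and the sequence shared between near copies limit the genotype comparisons, in which Thbs1 per gene does not check the labels.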

Other observations

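Beyond the members, Fabp1, the liver fatty acid-binding protein, was the single gene of the PPARα target list whose interaction passed (1.17, limma, FDR 0.0257). It was lower in NDKO than in NDWT (log2FC −0.96, FDR 0.00128) and fell on CDAHFD in WT (−1.48), with a log2FC of −0.31 (FDR 0.104) in TSP-1 null mice. Vnn1, a pantetheinase, was also lower in NDKO (−1.35, FDR 0.0017) and fell on CDAHFD in WT (−1.49), with −0.15 in TSP-1 null mice, but its interaction did not pass (1.34, FDR 0.0666). Ppargc1a, a transcriptional coactivator, was higher in NDKO (1.28, FDR 0.00219) and Cd36 lower (−1.21, FDR 0.00619). Cyp4a31, a further Cyp4a gene, was higher in every HFKO than in every HFWT liver (log2FC 1.08), but the FDR was 0.146. These genotype values rest on the labels as given.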
